A study of Mus musculus with 2 samples.

Results

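Nonclassical monocytes are the circulating monocytes that patrol the inner wall of blood vessels. Here they were picked cell by cell from single-cell RNA sequencing of CD45-positive cells of tumour-bearing mouse lungs. A cell was a member when at least 2 of the 5 genes Ace, Treml4, Adgre4, Cd300e and Eno3 were detected, that is, had a value above 0, and none of Cd3e, Cd79a, Ncr1, Cxcr2 and Marco was. Those 5 exclusion genes mark T cells, B cells, NK cells, neutrophils and alveolar macrophages. In all, 360 of 11905 cells were members, 106 of 6203 in the DT library and 254 of 5702 in the PBS library. The rule thus read the expression values themselves, and the shares and the levels of its 10 genes are given as descriptions.

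Both groups were Scgb1a1cre /iDTR mice, in which Cre under the club cell gene Scgb1a1 switches on a diphtheria toxin receptor, and both bore HKP1 tumours, grown from 150000 cells of this mouse lung cancer line injected into the tail vein. DT mice received diphtheria toxin to deplete club cells, 600 ng per 20 g in each of 2 doses over days 8 to 9, and PBS mice were the control. What the groups shared was tamoxifen (2 mg per 20 g, days 3 to 7), anti-PD-1 antibody of clone RMP1-14 (250 µg per mouse, day 6) and radiation (4 Gy daily, days 10 to 12). Lungs were taken 24 to 48 h after the radiation. The protocol that names the toxin is the same text for both samples, and the assignment rests on the sample titles and the design text. There was 1 library per group, made from 4 mice per group with no label that ties a cell to a mouse. Differences between the libraries therefore have no replicate check, no test was run, and every interval below is an exact 95% interval that covers counting error only.

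As background, monocytes of the mouse come in a classical form, rich in Ly6c2 and Ccr2, and a nonclassical form that arises from it in the bone marrow, blood and spleen. The conversion depends on the nuclear receptor Nr4a1 and on C/EBP beta, and the nonclassical cells rely on the fractalkine receptor Cx3cr1 and the integrin LFA-1 (Itgal with Itgb2) to crawl along the endothelium. In mouse lungs they are known for taking up tumour material within vessels and for recruiting NK cells.

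The DT library held 27896059 UMIs over its cells with a median of 2909 per cell, and the PBS library held 31089434 with a median of 3719. Both tables list 16184 genes. In all, 8 cell barcodes occurred in both libraries, and 0 of them belonged to a member. The median member had 4836.5 UMIs and 1915 genes in DT, against 6038.5 UMIs and 2275.5 genes in PBS. The median mitochondrial share of their UMIs was 2.37% in DT and 2.19% in PBS. Of the members, 13 in DT and 11 in PBS had fewer than 1000 UMIs.

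Nonclassical monocytes made up a smaller share of the DT library. They were 1.71% of DT cells (interval 1.40 to 2.06%) and 4.45% of PBS cells (interval 3.93 to 5.02%), a ratio of 0.384 (interval 0.303 to 0.483). Cells with Csf1r detected, the receptor for the monocyte growth factor CSF1, that passed the same 5 exclusions and were not members served as the comparison set, called other Csf1r-positive cells below. They were 804 cells or 12.96% in DT and 624 cells or 10.9% in PBS, a ratio of 1.18 (interval 1.07 to 1.32). The lower share in DT was therefore seen in the nonclassical cells and not in this neighbouring set, although the difference between the ratios was not tested. Of members and other Csf1r-positive cells together, members were 11.6% in DT and 28.9% in PBS.

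The lower depth of DT bears on a rule that counts detected genes. When every cell was thinned to 1000 UMIs, which left out 616 cells in DT and 253 in PBS, members were 32 of 5587 cells (0.573%) in DT and 115 of 5449 cells (2.11%) in PBS. That ratio was 0.271 (interval 0.177 to 0.405), further from 1 than without thinning. At 2000 UMIs it was 0.261 and at 500 UMIs 0.386.

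The cells that met the rule differed in how many of the 5 genes they showed. Exactly 2 genes were detected in 66 members in DT and 77 in PBS, a ratio of shares of all cells of 0.788 (interval 0.558 to 1.11). Exactly 3 were detected in 21 members in DT and 63 in PBS, a ratio of 0.306. Exactly 4 were detected in 13 members in DT and 73 in PBS, a ratio of 0.164. All 5 were detected in 6 members in DT and 41 in PBS, a ratio of 0.135 (interval 0.0467 to 0.319). The ratio was thus lower the more of the genes a cell showed, and members with 3 or more were 37.7% of the members in DT and 69.7% in PBS. The commonest set in DT was the pair Treml4 and Adgre4, in 19 cells, while in PBS it was Ace, Treml4, Adgre4 and Eno3 together, in 53 cells.

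**Figure D1:**
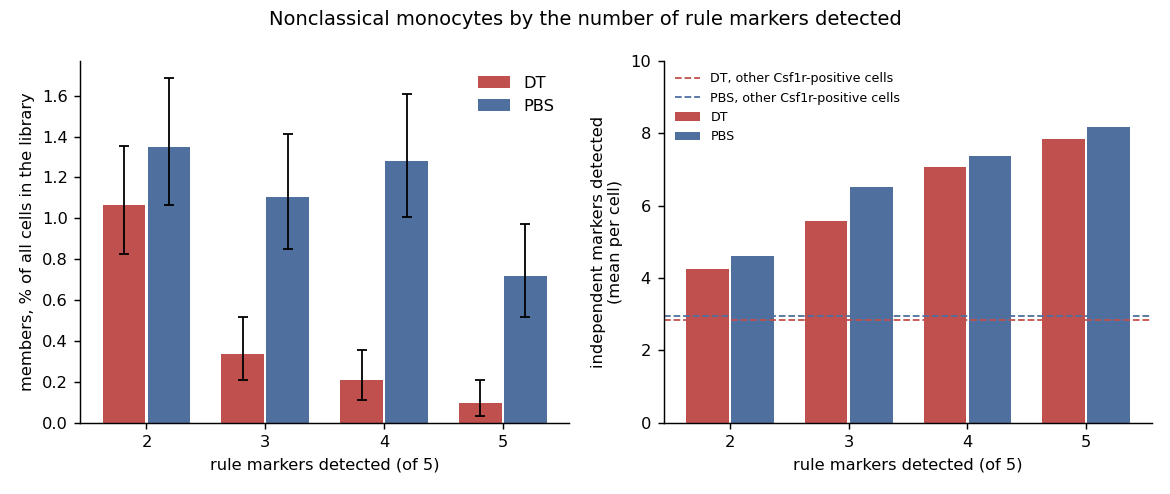
Left, members as a percentage of all cells of the library by the number of the 5 rule markers detected, with exact 95% intervals for DT and PBS. Right, the mean number of 11 other monocyte genes detected per cell in the same members, with dashed lines for other Csf1r-positive cells. The bars for DT and PBS are close at 2 markers (66 and 77 cells) and far apart at 5 (6 and 41 cells).

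Just outside the rule stood the cells with exactly 1 of the 5 genes and no exclusion gene, 354 in DT and 308 in PBS. These cells showed a mean of 2.56 in DT and 2.72 in PBS of 11 independent monocyte genes (Nr4a1, Cx3cr1, Spn, Itgal, Ceacam1, Fcgr4, Pglyrp1, Itga4, Cd36, Bcl2 and Pou2f2). Just inside, members with exactly 2 genes showed 4.24 in DT and 4.61 in PBS, and other Csf1r-positive cells showed 2.83 in DT and 2.96 in PBS. Another 53 cells in DT and 125 in PBS had at least 2 of the 5 genes together with an exclusion gene, most often the neutrophil receptor Cxcr2, in 42 cells in DT and 78 in PBS. Those Cxcr2-positive cells had summed levels of the neutrophil alarmin S100a8 of 14531 CPM (a gene's UMIs, scaled to the summed UMIs of the cell set) in DT and 13423 CPM in PBS, against 115 CPM in DT members and 69.9 CPM in PBS members. With no gene required absent the ratio of shares was 0.386, close to that of the rule.

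Members were picked by detection of the 5 rule genes, so their higher detection in members was fixed by the rule and is no check of it. Cd3e-positive cells, T cells that should lack these genes, give a background (1007 cells with a median of 4265 UMIs in DT, 1070 cells with 4381.5 UMIs in PBS). This set had none of Csf1r, Cd79a, Ncr1, Cxcr2 and Marco detected. Requiring Csf1r absent left out 70 of 1077 cells in DT and 108 of 1178 in PBS, which may lower the backgrounds given here and below. Ace, the angiotensin-converting enzyme, which lung endothelium also makes, was detected in 64.2% of members in DT and 76.0% in PBS, and in 1.19% of Cd3e-positive cells in DT and 0.841% in PBS. Treml4, a receptor that binds late apoptotic and necrotic cells, was detected in 67.0% of members in DT and 84.3% in PBS, against 0.397% of Cd3e-positive cells in DT and 0.748% in PBS. Adgre4, an adhesion G protein-coupled receptor, was detected in 68.9% of members in DT and 82.7% in PBS. The background for Adgre4 in Cd3e-positive cells was 0.298% in DT and 0.280% in PBS. Cd300e, an activating receptor of monocytes, was detected in 22.6% of members in DT and 29.5% in PBS, against 0.199% of Cd3e-positive cells in DT and 0.187% in PBS. Eno3, a muscle-type enolase, was detected in 38.7% of members in DT and 58.3% in PBS, and had the highest background, at 5.36% of Cd3e-positive cells in DT and 4.49% in PBS. Over the whole libraries, with no cell selected, Treml4 RNA stood at 15.2 CPM in DT and 44.3 CPM in PBS, and Adgre4 RNA at 9.21 CPM in DT and 27.8 CPM in PBS. Csf1r over the whole libraries stood at 150 CPM in DT and 166 CPM in PBS. The RNA of these rule genes was thus lower in the DT library as a whole, but much of it lay in the members themselves. Members held 58.7% of the Treml4 UMIs and 62.6% of the Adgre4 UMIs in PBS, and 30.3% and 44.4% in DT. These totals are therefore not separate from the shares above.

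On the mouse genome (GRCm38), Ace lies at chr11:105967945-105989964 on the plus strand, Eno3 at chr11:70657202-70662513 on the plus strand and Cd300e at chr11:115051917-115062177 on the minus strand. Treml4 lies at chr17:48264295-48275360 and Adgre4 at chr17:55749984-55853662, both on the plus strand. All 5 had promoter sequences in RefSeq (build GRCm38.p6), 250 bases before to 50 bases after a gene's start, and these were searched on both strands for motifs of factors known in the lineage. The NR4A motif AAAGGTCA, held by 1.51% of 32851 promoters, and the C/EBP palindrome TTGCGCAA, held by 0.183%, were in 0 of the 5. The PU.1 motif GAGGAAGT, held by 3.20% of promoters, was in that of Adgre4 alone, and that promoter (chr17:55749734-55750033, plus strand) is printed to show it, in capitals. A match describes letters and not binding.
Adgre4: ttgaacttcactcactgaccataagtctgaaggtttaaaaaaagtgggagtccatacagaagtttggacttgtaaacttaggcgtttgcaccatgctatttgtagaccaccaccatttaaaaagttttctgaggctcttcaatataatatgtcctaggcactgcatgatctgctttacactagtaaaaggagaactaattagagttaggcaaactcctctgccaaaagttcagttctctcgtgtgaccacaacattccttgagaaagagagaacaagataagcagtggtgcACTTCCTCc

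Genes that the rule did not use were checked against the label, and most of those known from nonclassical monocytes were higher in members than in other Csf1r-positive cells of both libraries. Spn, the sialoglycoprotein CD43 that marks nonclassical monocytes and that T cells also make, stood at 123 CPM in DT members and 18.2 CPM in DT other Csf1r-positive cells. In PBS, Spn stood at 322 CPM in members and 18.9 CPM in other Csf1r-positive cells. Pou2f2, the transcription factor OCT-2, stood at 341 CPM in DT members and 52.7 CPM in other Csf1r-positive cells of DT, and at 588 and 82.0 CPM in the same sets of PBS. Of the 11 independent genes, Fcgr4 was not higher in PBS members, at 119 CPM against 127 CPM in other Csf1r-positive cells of PBS. Cd36 was level in DT, at 74.2 CPM in members and 74.7 CPM in other Csf1r-positive cells. Of a list of 30 nonclassical monocyte genes without the rule genes, 29 had at least 20 UMIs, and 21 of them were higher in DT members than in other Csf1r-positive cells of DT, with a median log2 ratio of 1.23. In PBS, 24 of 29 were higher, with a median of 1.89. A gene was counted as higher or lower here when its ratio passed 1.5-fold with 5 CPM added to both sides and its interval left out 1. Over all genes measured, 4.54% in DT and 9.70% in PBS were higher in members by that rule, and 5.45% in DT and 11.0% in PBS were lower.

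The cells that shared the label were not uniform. Summed over the identity list, members with 2 rule genes had 8675 CPM in DT and 11042 CPM in PBS. Members with 3 rule genes had 13251 CPM in DT and 14970 CPM in PBS, and those with 4 had 17712 CPM in DT and 18672 CPM in PBS. At 5 rule genes the order of the libraries was the opposite, at 23010 CPM in DT (6 cells) and 17589 CPM in PBS (41 cells). Other Csf1r-positive cells had 6074 CPM in DT and 5350 CPM in PBS. Some members showed complement genes that macrophages make. At least 2 of the 3 genes C1qa, C1qb and C1qc were detected in 16 of 106 members (15.1%) in DT and 16 of 254 (6.30%) in PBS, called C1q cells below. The same was true of 46.0% of other Csf1r-positive cells in DT and 40.4% in PBS, and of 1.09% of Cd3e-positive cells in DT and 1.03% in PBS. The C1q cells among members had medians of 10599.5 UMIs in DT and 9853.5 in PBS, above those of all members. They showed means of 4.625 in DT and 6.375 in PBS of the 11 independent genes, against 5.06 and 6.45 in all members. Whether they are macrophages, or droplets with more than 1 cell, was not tested. At least 2 of 8 endothelial genes were detected in 2 members (1.89%) in DT and 7 (2.76%) in PBS, and in 1.19% of Cd3e-positive cells in DT and 1.03% in PBS. Endothelial and stromal genes summed to 173 CPM in the 2 cells of DT, with 0 CPM of Cdh5. In the 7 cells of PBS they summed to 14972 CPM, with 987 CPM of Cdh5. The name endothelial cells below stands for this detection rule alone, and the cells it caught were unlike in the 2 libraries. Leaving out the C1q and endothelial cells kept 89 members in DT and 231 in PBS, and the ratio of shares was then 0.354.

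The sexes of the sampled cells differed between the libraries, which the labels do not mention. From Xist and 4 Y-linked genes, 16 members were male-called and 33 female-called in DT, against 117 male-called and 7 female-called in PBS. The rest showed neither or both. Of all male-called cells, members were 1.76% (16 of 907) in DT and 4.73% (117 of 2475) in PBS, a ratio of 0.373 (interval 0.206 to 0.632). Of all female-called cells, members were 1.71% (33 of 1933) in DT and 1.92% (7 of 364) in PBS, a ratio of 0.888 (interval 0.386 to 2.38). The share was thus lower in DT among male-called cells, while among female-called cells the interval includes 1. The part of sex in these ratios was not tested further.

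Genes that set members apart from other Csf1r-positive cells in both libraries, besides Spn and Pou2f2, included Hes1, a repressor downstream of Notch, at 94.5 CPM in DT members against 13.5 CPM in other Csf1r-positive cells of DT. Hes1 was at 74.9 CPM in PBS members and 9.90 CPM in other Csf1r-positive cells of PBS. Fabp4, a fatty acid binding protein, stood at 81.0 CPM in DT members and 11.2 CPM in other Csf1r-positive cells of DT, and at 106 and 8.62 CPM in the same sets of PBS. Ceacam2, Pglyrp1, Nxpe4, Serpinb10, Pot1b, Grk3, Hpgd, Zfyve9, Fam49a, Krt80 and Stap1 completed the 15 highest, all with log2 ratios of at least 1.88 in DT and 1.95 in PBS. Hpgd degrades prostaglandins, Pglyrp1 binds bacterial peptidoglycan and Grk3 is a kinase of G protein-coupled receptors.

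The 10 genes lowest in members included 3 chemokines, Ccl2, Ccl7 and Ccl17. Ccl2, the ligand of Ccr2, stood at 27.0 CPM in DT members and 219 CPM in other Csf1r-positive cells of DT, and at 23.5 and 243 CPM in the same sets of PBS. Ccl17, a ligand of Ccr4, stood at 13.5 CPM in DT members and 281 CPM in other Csf1r-positive cells of DT, and at 59.4 and 360 CPM in PBS. The neutrophil alarmin S100a9, C3ar1, Dcstamp, Mgl2, Syngr1, Dhrs3 and Inhba were the others, and Inhba had 0 UMIs in the members of both libraries. Ly6c2, which marks classical monocytes, was not lower, at 243 CPM in DT members and 232 CPM in other Csf1r-positive cells of DT, and at 436 CPM in PBS members and 341 CPM in other Csf1r-positive cells of PBS.

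**Figure D2:**
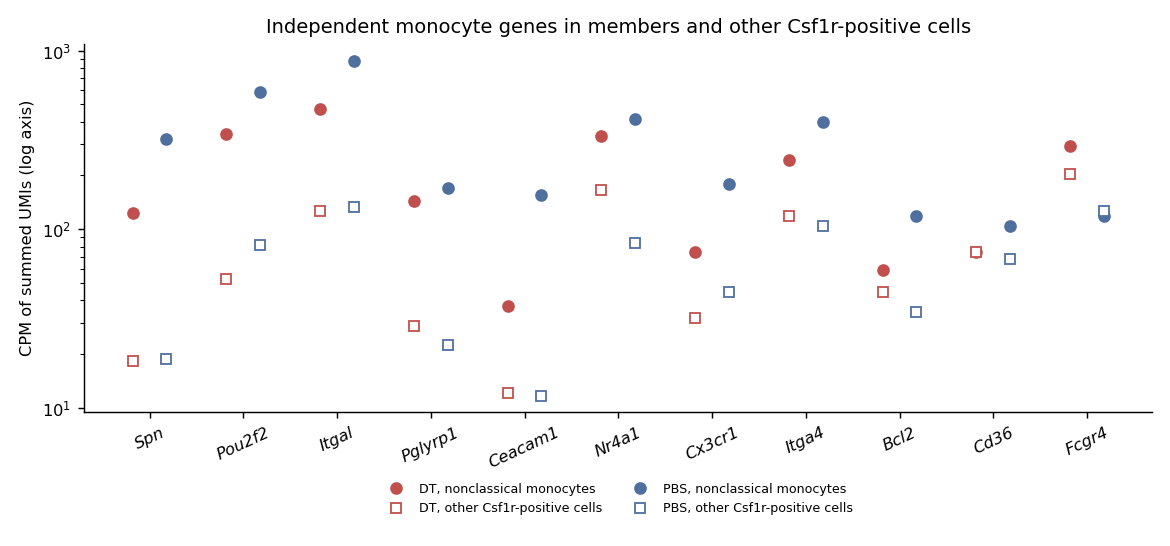
Levels in CPM of summed UMIs (log axis) of the 11 independent monocyte genes in members (filled circles) and other Csf1r-positive cells (squares), with DT left of PBS. Spn, Pou2f2, Itgal and Pglyrp1 are higher in members in both libraries. Fcgr4 stands at 294 CPM in DT members and 204 CPM in other Csf1r-positive cells of DT, but at 119 and 127 CPM in the same sets of PBS. Cd36 is level in DT, at 74.2 and 74.7 CPM.

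Within members, genes of nonclassical identity were mostly lower in DT than in PBS. Of 8305 genes with at least 20 UMIs over both libraries, 506 (6.09%) were higher and 559 (6.73%) lower in DT, and the median log2 ratio over all was -0.01. In other Csf1r-positive cells, 1.26% of 12435 genes were higher in DT and 1.31% lower, with a median of 0.02. Of the 29 identity genes measured in members, 15 were lower in DT, 3 were higher, and the median log2 ratio was -0.66, against 0.04 in other Csf1r-positive cells. Itgal, the alpha chain of LFA-1, stood at 472 CPM in DT members and 877 CPM in PBS members, a ratio of 0.539 (interval 0.472 to 0.613). Cx3cr1, the fractalkine receptor, stood at 74.2 CPM in DT members and 178 CPM in PBS members, a ratio of 0.417 (interval 0.296 to 0.574). Ceacam1, an adhesion molecule, stood at 37.1 CPM in DT members and 155 CPM in PBS members, a ratio of 0.239 (interval 0.147 to 0.370). These are genes of crawling and contact with endothelium.

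Other identity genes gave a mixed picture. Gngt2, a G protein gamma subunit, stood at 896 CPM in DT members and 2046 CPM in PBS members. Smpdl3b, a lipid phosphodiesterase, stood at 86.0 CPM in DT members and 283 CPM in PBS members. The survival gene Bcl2 stood at 59.0 CPM in DT members and 118 CPM in PBS members, but at 117 CPM in DT and 137 CPM in PBS at 3 or more rule genes. Nr4a1, on which these cells depend, had a log2 ratio of -0.32 in members and did not pass the 1.5-fold rule, at 331 CPM in DT and 414 CPM in PBS. Its direction turned at 3 or more rule genes, with 574 CPM in DT and 480 CPM in PBS and a log2 ratio of 0.26, also short of 1.5-fold. In other Csf1r-positive cells Nr4a1 was higher in DT, at 165 CPM in DT and 83.6 CPM in PBS. The 3 identity genes higher in DT members were Fcgr4, Cd274 and Itgax. Cd274, the ligand PD-L1 of the receptor that the antibody blocks, stood at 152 CPM in DT members and 89.1 CPM in PBS members.

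The size of the identity difference depended on which members were compared. In members with at least 3 rule genes (40 in DT, 177 in PBS) the identity median was -0.13, with 6 genes lower and 4 higher in DT. With the members of DT weighted to the marker numbers of PBS it was -0.19, and without the C1q and endothelial cells it was -0.43. With equal weight per cell it was -0.26. Among members chosen after thinning to 1000 UMIs (32 in DT, 115 in PBS) it was -0.09 over 26 genes. Of these 26, 1 was higher and 2 lower in DT, where 3.99% and 4.53% of all genes were. Spn kept a log2 ratio of -0.62 at 3 or more rule genes and Ceacam1 one of -1.31, while Itgal had -0.25 and Pou2f2 -0.08, no longer past 1.5-fold. Among male-called members (16 in DT, 117 in PBS) the identity median was -0.98, and among female-called members (33 in DT, 7 in PBS) it was 0.03. Over all genes measured, 5.35% were higher and 7.00% lower in DT among male-called members, and 10.6% and 8.24% among female-called ones. These few cells and these shares stand behind every split by sex below. The identity median was thus nearer 0 when members with similar numbers of rule genes, or cells thinned to equal depth, were compared. The parts of depth and sex in it were not tested.

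Adhesion and patrolling genes, of which 7 of 24 are also on the identity list, had a median log2 ratio of -0.46 in members, with 9 lower and 1 higher in DT, against 0.01 in other Csf1r-positive cells. Itga4, the alpha chain of the integrin VLA-4, stood at 245 CPM in DT members and 398 CPM in PBS members. Icam2, a ligand of LFA-1, stood at 15.2 CPM in DT members and 38.4 CPM in PBS members. Pecam1, which endothelium also makes, stood at 13.5 CPM in DT members and 80.4 CPM in PBS members. Itgb2 did not pass 1.5-fold, at 511 CPM in DT members and 685 CPM in PBS members, nor did Selplg, the selectin ligand, at 256 CPM in DT members and 264 CPM in PBS members. The 9 measured genes of endothelium and stroma were all lower in DT members, with a summed level of 48.9 CPM in DT and 708 CPM in PBS. Without the endothelial and C1q cells that sum came to 40.3 CPM in DT and 67.1 CPM in PBS, and the adhesion median was -0.28. At 3 or more rule genes the adhesion median was -0.07, and after thinning to 1000 UMIs it was 0.11.

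Among transcription factors of monocyte fate, 4 of 21 were lower in DT members, Klf2 and Klf4 among them, and 4 were higher, with Cebpa, Egr1 and Runx1 among them. Klf2 stood at 445 CPM in DT members and 932 CPM in PBS members. Klf4, which promotes monocyte differentiation, stood at 132 CPM in DT members and 314 CPM in PBS members. The median over the factors was -0.08. Among male-called members it was -0.54, with 3 higher and 9 lower. The 20 classical monocyte genes had a median of -0.05, with 4 higher and 4 lower. Their median was -0.79 among male-called members (16 cells in DT), with 3 of 18 higher and 8 lower. It was 0.73 among female-called members (7 cells in PBS), with 7 of 15 higher and 1 lower. Ccr2, which leads classical monocytes out of the bone marrow, was higher, at 329 CPM in DT members and 194 CPM in PBS members, whereas Ly6c2 was lower. At 3 or more rule genes Ccr2 stood at 146 CPM in DT and 132 CPM in PBS.

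Genes induced by interferon gamma were higher in DT members. All 26 measured targets had log2 ratios above 0, 20 were past 1.5-fold and 0 were lower, and the median was 0.78. In other Csf1r-positive cells the median was -0.06, with 0 of 27 past 1.5-fold in either direction. Cxcl9, a chemokine for CXCR3-bearing T cells, stood at 1567 CPM in DT members and 406 CPM in PBS members, a ratio of 3.86 (interval 3.49 to 4.27). In other Csf1r-positive cells Cxcl9 stood at 1476 CPM in DT and 1563 CPM in PBS. Cxcl10, which binds the same receptor, stood at 651 CPM in DT members and 180 CPM in PBS members, a ratio of 3.62 (interval 3.10 to 4.23), and at 491 CPM in DT and 660 CPM in PBS in other Csf1r-positive cells. Few cells carried these chemokine UMIs: Cxcl9 was seen in 26 members in DT and 38 in PBS, and Cxcl10 in 15 in DT and 28 in PBS. At 2 rule genes Cxcl9 stood at 1838 CPM in DT and 660 CPM in PBS, and at 3 at 1494 CPM in DT and 707 CPM in PBS. At 4 it was lower in DT, at 71.6 CPM in DT (13 cells) and 161 CPM in PBS. At 5 it stood at 314 CPM in DT (6 cells) and 47.0 CPM in PBS.

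Targets other than the chemokines were higher too. Irf1, a transcription factor that interferon gamma induces, stood at 213 CPM in DT members and 118 CPM in PBS members. Socs1, a feedback inhibitor of interferon signalling, stood at 77.6 CPM in DT members and 30.9 CPM in PBS members. Gbp7 stood at 150 CPM in DT members and 57.5 CPM in PBS members, Gbp2 at 410 CPM in DT and 199 CPM in PBS, and Irgm1 at 179 CPM in DT and 86.6 CPM in PBS. These guanylate-binding proteins and immunity-related GTPases act against intracellular microbes. Near-identical copies in these families can share reads, so values of single family members are uncertain. The proteasome and transporter genes of antigen processing were higher by less, with Tap1 at 287 CPM in DT members and 173 CPM in PBS members and Psmb9, at 415 CPM in DT and 287 CPM in PBS, short of 1.5-fold.

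Set against other Csf1r-positive cells of their own library, members had a median log2 ratio over the interferon gamma targets of 0.14 in DT, with 1 of 27 higher and 0 lower. In PBS the median was -0.73, with 17 of 27 lower in members and 0 higher. Summed over the list, members had 7245 CPM in DT and 3748 CPM in PBS, and other Csf1r-positive cells had 6819 CPM in DT and 7310 CPM in PBS. The level in DT members was thus near that of other Csf1r-positive cells, and the level in PBS members below it.

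The sum was lower in members with 4 or 5 rule genes than in those with 2 or 3, in each library. At 2 genes it came to 8061 CPM in DT and 4718 CPM in PBS. At 3 it came to 6009 CPM in DT and 4369 CPM in PBS, at 4 to 4061 CPM in DT and 3223 CPM in PBS, and at 5 to 4707 CPM in DT and 2367 CPM in PBS. At each number the DT value was the higher, although 13 DT cells had 4 and 6 had 5. With at least 3 rule genes the list median was 0.61 and 9 of 25 genes were past 1.5-fold, where 4.51% of all genes were. Without C1q and endothelial cells the median was 0.91, with 19 of 26 higher. It was 0.32 among male-called members with 6 genes higher and 1 lower, 0.46 among female-called members with 4 of 21 higher, and -0.03 over the 11 genes still measured after thinning to 1000 UMIs.

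**Figure D3:**
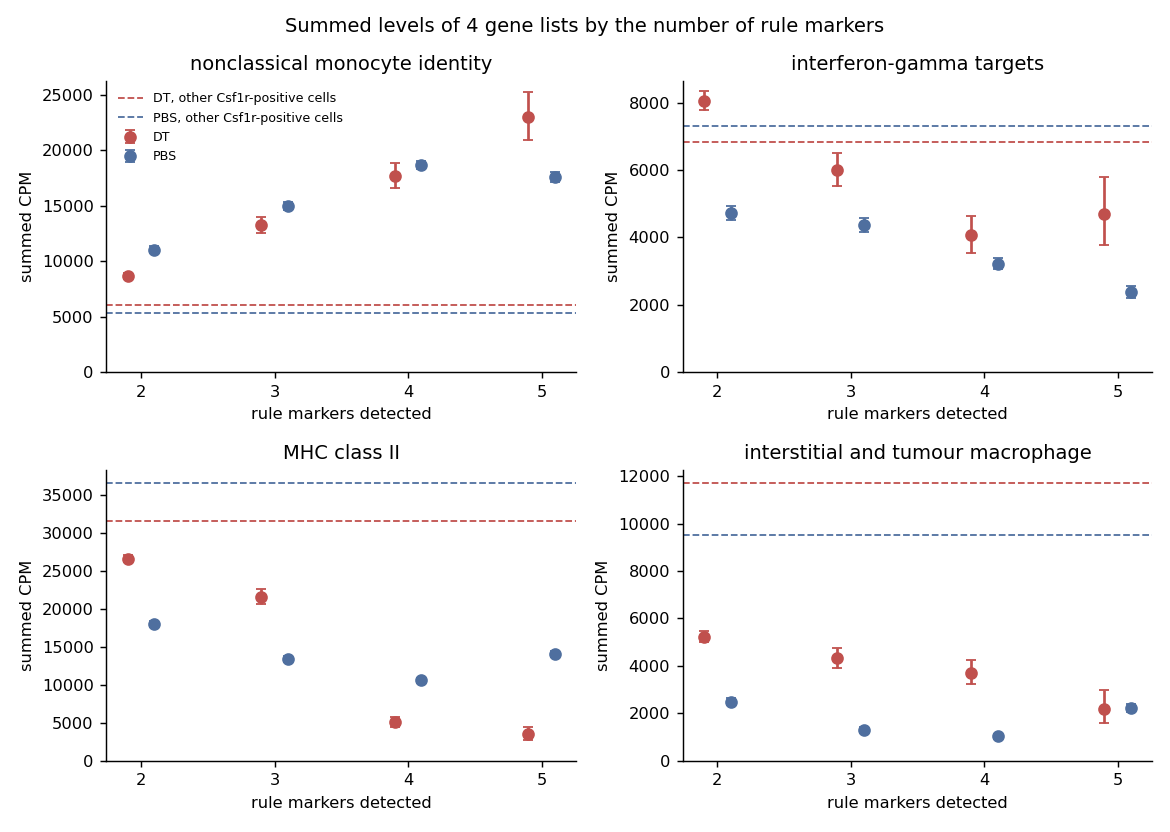
Summed levels in CPM of 4 gene lists in members by the number of rule markers detected, with exact 95% Poisson intervals, DT left of PBS, and dashed lines for other Csf1r-positive cells. Identity genes are higher in members with 4 markers (17712 CPM in DT, 18672 CPM in PBS) than in those with 2. At 5 markers they stand at 23010 CPM in DT and 17589 CPM in PBS. Interferon gamma targets are higher in DT at each number, and MHC class II is higher in DT at 2 and 3 markers but lower at 4 and 5.

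Promoters of the interferon gamma targets were searched for the interferon-stimulated response element, written here as 2 copies of GAAA spaced by 2 bases of any kind, and the gamma-activated site, TTCNNNGAA, on both strands. RefSeq promoters were found for 19 of the 28 genes of the list. The response element was in 11 of these 19 and the gamma-activated site in 9 of 19, where 3.99% and 9.55% of all 27025 genes with a promoter held them. The 19 may not all be separate, since families with near-identical copies are among them, and Tgtp1 and Tgtp2 each counted for both motifs. Both motifs are in the promoter of Gbp7 (chr3:142530086-142530385, plus strand), and Cxcl10 (chr5:92348840-92349139, minus strand) holds the response element. They are printed for a chemokine and a GTPase that were higher in DT members, with the motifs in capitals, read on either strand.
Cxcl10: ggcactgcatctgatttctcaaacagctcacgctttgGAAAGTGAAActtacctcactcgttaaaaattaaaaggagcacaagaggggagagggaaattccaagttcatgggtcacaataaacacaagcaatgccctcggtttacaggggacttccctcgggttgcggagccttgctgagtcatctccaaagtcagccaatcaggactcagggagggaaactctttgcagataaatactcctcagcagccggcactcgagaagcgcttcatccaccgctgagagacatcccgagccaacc
Gbp7: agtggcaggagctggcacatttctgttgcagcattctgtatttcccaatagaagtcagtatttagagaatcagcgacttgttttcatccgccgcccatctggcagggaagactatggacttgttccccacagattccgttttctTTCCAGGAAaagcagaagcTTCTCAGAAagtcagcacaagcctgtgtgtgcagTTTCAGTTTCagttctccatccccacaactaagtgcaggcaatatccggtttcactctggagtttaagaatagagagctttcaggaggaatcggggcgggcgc

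A wider list of interferon-stimulated genes, which shares genes with the gamma targets, Gbp2, Gbp3 and Gbp7 among them, gave a similar direction with smaller steps. Of 33 measured, 31 had log2 ratios above 0, 16 were higher and 0 lower in DT members, and the median was 0.63, against -0.22 in other Csf1r-positive cells. Isg15, a ubiquitin-like protein, stood at 246 CPM in DT members and 136 CPM in PBS members. Ifit3 stood at 55.7 CPM in DT members and 22.3 CPM in PBS members. Ifitm3 and Bst2, both high in monocytes, did not pass 1.5-fold, with log2 ratios of -0.19 each. At 3 or more rule genes the median was 0.45. Within each sex few genes of the list passed 1.5-fold: among male-called members 1 of 25 was higher and 2 lower, with a median of 0.16, and among female-called members 3 of 21 were higher and 1 lower, with a median of 0.08.

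MHC class II genes, which present antigen to CD4 T cells, were higher in DT members as well. Of 14 measured, 8 were higher and 1 lower, with a median of 0.68 in members and -0.17 in other Csf1r-positive cells. H2-Ab1 stood at 3264 CPM in DT members and 1807 CPM in PBS members, and at 4639 CPM in DT and 5436 CPM in PBS in other Csf1r-positive cells. Cd74, the invariant chain, stood at 10539 CPM in DT members and 6232 CPM in PBS members. Ciita, the transactivator of these genes, stood at 118 CPM in DT members and 68.7 CPM in PBS members. H2-Eb2 was the gene that was lower, with 0 CPM in DT members and 15.5 CPM in PBS members.

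The class II difference was seen in the members with few rule genes. The list summed to 26577 CPM in DT and 17994 CPM in PBS at 2 rule genes and to 21590 CPM in DT and 13362 CPM in PBS at 3. It summed to 5081 CPM in DT and 10575 CPM in PBS at 4, and to 3556 CPM in DT and 14050 CPM in PBS at 5. The order of the libraries was thus the opposite in the members with 4 and 5 rule genes, which were 13 and 6 cells in DT. At 3 or more rule genes the median was 0.21 with 1 gene higher, and after thinning to 1000 UMIs it was -0.28. MHC class I genes had a median of 0.16 in members, with 2 of 19 higher and 2 lower.

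**Figure D4:**
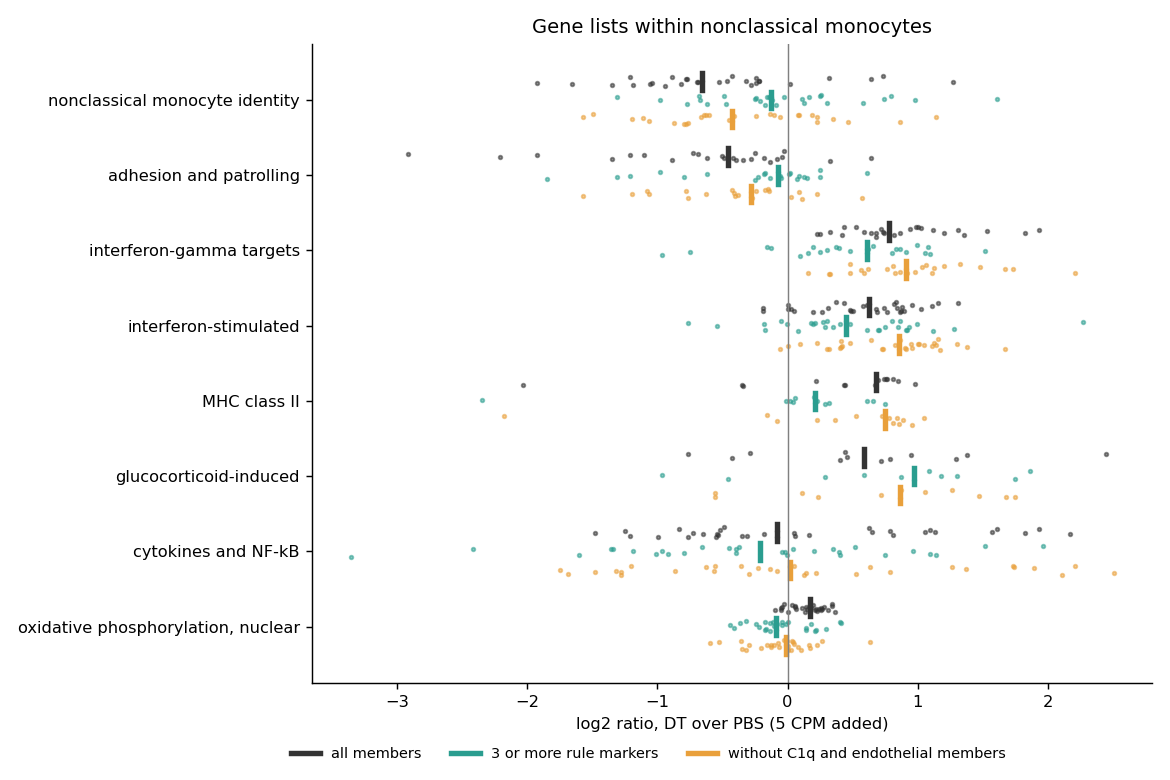
Log2 ratios of DT over PBS within members for the genes of 8 lists, 1 point per gene with at least 20 UMIs, and bars at the list medians for all members, for members with 3 or more rule markers and for members without C1q and endothelial cells. The interferon gamma medians are 0.78, 0.61 and 0.91, the identity medians -0.66, -0.13 and -0.43.

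Fc receptors, through which these cells bind antibody-coated targets, were higher in DT members. Fcgr4 stood at 294 CPM in DT members and 119 CPM in PBS members, a ratio of 2.47 (interval 2.00 to 3.05). Fcgr1 stood at 186 CPM in DT members and 69.3 CPM in PBS members, and Fcgr3 at 626 CPM in DT and 242 CPM in PBS. Fcgr2b, the inhibitory receptor, stood at 619 CPM in DT members and 270 CPM in PBS members. In other Csf1r-positive cells Fcgr4 was higher in DT too, at 204 CPM in DT and 127 CPM in PBS, while the log2 ratios of Fcgr1, Fcgr2b and Fcgr3 were between 0.17 and 0.35. Over the list of Fc receptors and phagocytosis genes, 12 of 24 were higher and 3 lower, with a median of 0.45. Without the C1q cells, which were a larger share of DT members, the list median was 0.04, with 6 of 19 higher and 2 lower, and the part of these cells was not tested further. Without C1q and endothelial cells it was 0.04, with 4 of 19 higher, although Fcgr4, Fcgr1, Fcgr2b and Fcgr3 remained higher with log2 ratios between 1.14 and 1.48. At 3 or more rule genes Fcgr4 had a log2 ratio of 1.61, Fcgr3 1.07, Fcgr1 1.05 and Fcgr2b 0.62.

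Genes that glucocorticoids induce were higher in DT in both sets of cells. In members 6 of 12 were higher and 1 lower, with a median of 0.59, and in other Csf1r-positive cells 7 of 14 were higher and 0 lower, with a median of 0.57. Fkbp5, a co-chaperone of the glucocorticoid receptor, stood at 202 CPM in DT members and 115 CPM in PBS members, and at 124 CPM in DT and 80.9 CPM in PBS in other Csf1r-positive cells. Per1, a clock gene with glucocorticoid response elements, stood at 65.8 CPM in DT members and 22.3 CPM in PBS members, and at 88.7 CPM in DT and 34.3 CPM in PBS in other Csf1r-positive cells. At 3 or more rule genes the median was 0.97 and without C1q and endothelial cells 0.87. The hour at which mice were killed is not given in the sources used here, and its part in clock genes was not tested.

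Cytokine and NF-kB genes split. Of 33 measured, 12 were higher and 8 lower in DT members, with a median of -0.08. The list gave opposite values in the few cells called by sex. Among male-called members, 16 cells in DT, 3 of 30 were higher and 14 lower, with a median of -1.05. Among female-called members, 7 cells in PBS, 13 of 21 were higher and 0 lower, with a median of 2.55. Of all genes, 10.6% were higher among female-called members. The part of sex was not tested. Feedback regulators of NF-kB were among the lower ones. Nfkbia, the inhibitor IkB alpha, stood at 341 CPM in DT members and 584 CPM in PBS members, while in other Csf1r-positive cells it stood at 474 CPM in DT and 321 CPM in PBS. Tnip1 stood at 42.2 CPM in DT members and 127 CPM in PBS members, Nfkb2 at 54.0 CPM in DT and 135 CPM in PBS, and Nfkbie at 35.4 CPM in DT and 88.5 CPM in PBS. Sod2, the mitochondrial superoxide dismutase that NF-kB induces, stood at 304 CPM in DT members and 611 CPM in PBS members. These 5 genes kept log2 ratios between -2.42 and -0.66 at 3 or more rule genes. Il1b was higher, at 1179 CPM in DT members and 565 CPM in PBS members, and likewise in other Csf1r-positive cells, at 1796 CPM in DT and 1082 CPM in PBS.

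Chemokine and chemoattractant receptors also split, with 4 of 13 higher and 4 lower in DT members and a median of 0.29. The median was -0.68 among male-called members (16 cells in DT), with 1 of 10 higher and 3 lower. It was 1.83 among female-called members (7 cells in PBS), with 5 of 5 higher. Without C1q cells it was -0.26. Ccr1, Ccr2 and Cxcr4 were among the higher ones, although Ccr2 differed little at 3 or more rule genes, as given above. Cxcr4, which holds cells in the bone marrow, stood at 186 CPM in DT members and 101 CPM in PBS members. Cx3cr1, the formyl peptide receptors Fpr1 and Fpr2, and Ackr3 were lower. Fpr1 stood at 8.43 CPM in DT members and 50.1 CPM in PBS members, and Fpr2 at 65.8 CPM in DT and 182 CPM in PBS.

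By size of the ratio, among genes that also held when each cell had equal weight, the 12 highest in DT members were Dnase1l3, Mt1, Thbs1, Scimp, C1qc, Spp1, Vcam1, Ifitm1, Cxcl9, Olfm1, Cxcl10 and Rgs1. Dnase1l3, a secreted nuclease, stood at 417 CPM in DT members and 66.2 CPM in PBS members, but its UMIs lay in 15 cells in DT and 18 in PBS, and at 3 or more rule genes its log2 ratio was -0.34. Mt1, a metallothionein, stood at 513 CPM in DT members and 89.7 CPM in PBS members. Thbs1, the matrix glycoprotein thrombospondin 1, stood at 196 CPM in DT members and 35.3 CPM in PBS members, with 431 CPM in DT and 136 CPM in PBS in other Csf1r-positive cells. C1qc and Spp1 are macrophage genes. Spp1, osteopontin, was seen in 6 members in DT and 17 in PBS, and its log2 ratio of 2.03 became -2.00 without the C1q and endothelial cells. The 14 interstitial and tumour macrophage genes likewise had a median of 1.46 over 13 measured in all members, and of 0.20 over 7 without those cells.

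The 12 lowest in DT members were Epas1, Egfl7, Calcrl, Ctla2a, Saa3, Pecam1, Fpr1, Marcksl1, Pdgfb, Ceacam1, Vwf and Ikbke. Epas1, Egfl7, Calcrl, Pecam1 and Vwf are genes of endothelium. Epas1 stood at 8.43 CPM in DT members and 142 CPM in PBS members, in 4 cells in DT and 16 in PBS. Marcksl1, a regulator of actin, stood at 50.6 CPM in DT members and 217 CPM in PBS members, a ratio of 0.234 (interval 0.155 to 0.340), and was seen in 15 members in DT and 116 in PBS. Ikbke, a kinase of the interferon and NF-kB pathways, stood at 32.0 CPM in DT members and 128 CPM in PBS members, and was seen in 14 members in DT and 105 in PBS. Pdgfb, a platelet-derived growth factor chain, stood at 11.8 CPM in DT members and 61.9 CPM in PBS members. In other Csf1r-positive cells the log2 ratios were 0.14 for Marcksl1, -0.06 for Ikbke and -0.64 for Pdgfb.

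Without the C1q and endothelial members the rule for named genes gave a different set, in which Ier3, Apoe, Klf9, Atf3, Osm and Gbp7 were among those that joined the highest and Ccl24, Cd63, Ccl4, Clec4e, Trem3 and Gm44951 joined the lowest. Scimp, an adaptor of MHC class II signalling, stood at 128 CPM in all DT members and 27.2 CPM in all PBS members, a log2 ratio of 2.05, and of 0.36 at 3 or more rule genes. Ifitm1, an interferon-induced membrane protein, stood at 135 CPM in DT members and 31.6 CPM in PBS members. Apoe, the apolipoprotein, stood at 1957 CPM in DT members and 706 CPM in PBS members and was seen in 79 members in DT and 117 in PBS. Clec4e, the receptor Mincle, stood at 86.0 CPM in DT members and 318 CPM in PBS members. Trem3 stood at 72.5 CPM in DT members and 234 CPM in PBS members. At 3 or more rule genes Apoe kept a log2 ratio of 1.55, Clec4e one of -1.24 and Trem3 one of -0.91, while Atf3 had 0.02, Osm -0.40 and Saa3 -0.40.

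**Figure D5:**
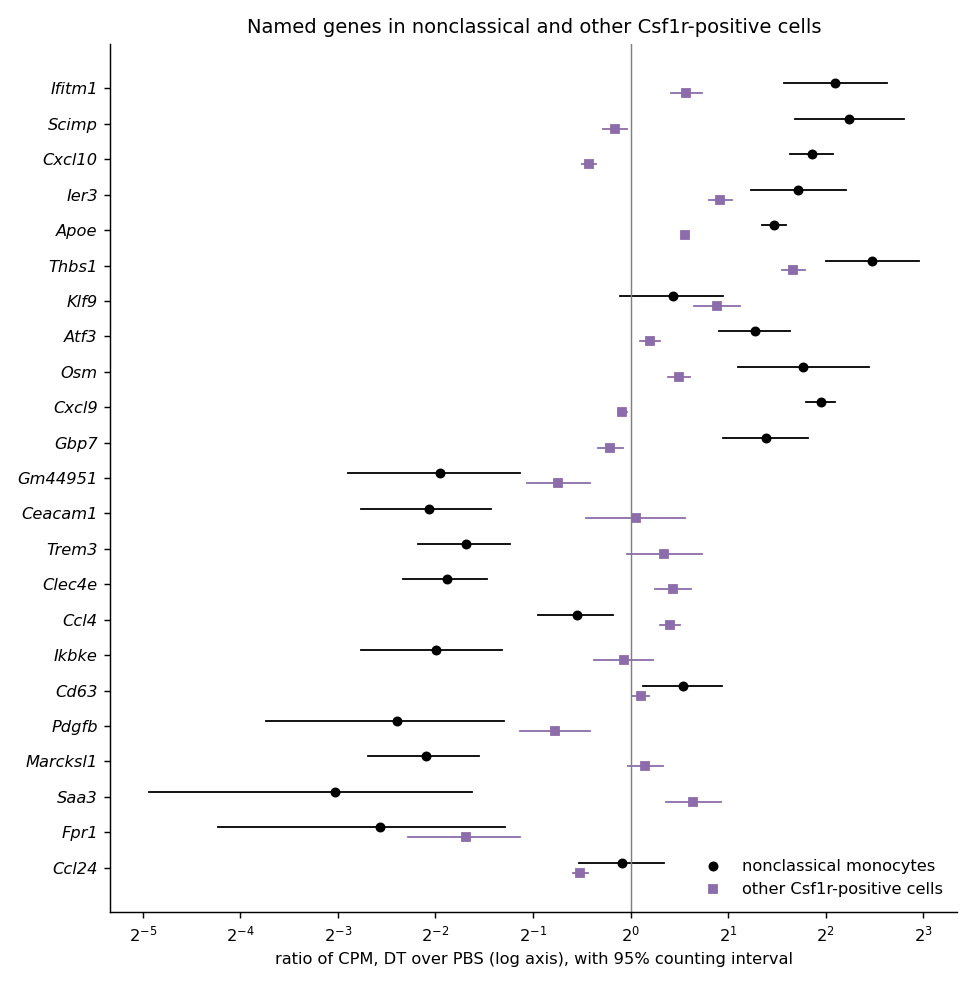
Ratio of CPM, DT over PBS (log axis), with exact 95% counting intervals, for genes named without C1q and endothelial members, in all members (circles) and in other Csf1r-positive cells (squares). Cxcl9 has a ratio of 3.86 in members and 0.944 in other Csf1r-positive cells, and Marcksl1 0.234 in members and 1.11 in other Csf1r-positive cells.

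Lists of cell stress and energy use held few differences over all members, and more of their genes passed 1.5-fold in some splits by sex. Of 30 nuclear genes of oxidative phosphorylation, 0 passed 1.5-fold in DT members, with a median of 0.17. Among male-called members 4 of 27 were higher and 0 lower, and among female-called members 5 of 27 were higher and 0 lower. Of 9 genes of the mitochondrial genome, 0 passed over all members, with a median of -0.15. Among male-called members 0 passed, and among female-called members 0 were higher and 2 lower. Of 19 measured genes of the p53 response to radiation, which both groups received, 1 was higher and 3 lower. Among male-called members (16 cells in DT) 0 of 12 were higher and 4 lower, with a median of -0.95. Among female-called members (7 cells in PBS) 1 of 7 was higher and 4 lower, with a median of -1.47. Cdkn1a, the cell cycle inhibitor p21, stood at 241 CPM in DT members and 246 CPM in PBS members. Of 25 survival and cell death genes 0 were higher and 2 lower, namely Bcl2 and Cflar, an inhibitor of caspase-8 that stood at 74.2 CPM in DT members and 135 CPM in PBS members. The difference in Bcl2 was smaller at 3 or more rule genes, as given above. Among male-called members 1 of 23 survival and cell death genes was higher and 2 lower. Among female-called members 4 of 16 were higher and 3 lower. The part of sex in these lists was not tested.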

How the data were processed

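Each library was made with the 10x Genomics Chromium 3′ assay from DAPI-negative, CD45-positive sorted lung cells, per the labels' protocols. The submitters' processing notes name STAR, Partek, Seurat and the mm10 build, with versions, settings and annotation not given in the sources used here. Values were deposited by the authors as log2(CPM + 1), cell by cell. The plan had assumed UMI counts. Un-logging and dividing a cell's values by the smallest of them therefore came first, and 100% of the values above 0 came out whole within 1%. These recovered UMIs were used, with averages of the deposited log2 values as an alternative.

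Levels are CPM of the UMIs summed over all cells of a set. Log2 ratios are on the log2(CPM + 5) scale, for genes with at least 20 UMIs over both sets. Ratios not given as log2 are plain ratios of CPM or of shares, with nothing added. A gene counted as higher or lower past 1.5-fold on the log2(CPM + 5) scale when the exact conditional binomial 95% interval of its plain ratio left out 1. Shares have Clopper-Pearson intervals. UMIs are molecules, but droplets share a library, so intervals cover counting error alone. No doublet caller was run, and cells with an exclusion gene or with at least 2 genes of another lineage were left out by the rule or as an alternative. CPM of 3′ tags are compared within a gene and not between genes.

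The rule for named genes took the 12 highest and 12 lowest ratios among genes past 1.5-fold with at least 50 UMIs in at least 10 cells, at least 50 CPM in 1 library and the same 1.5-fold direction with equal weight per cell. Against other Csf1r-positive cells it took the 15 highest and 10 lowest by the smaller ratio of the 2 libraries. From each list, genes were named by their UMIs or ratio. The members and the lists were chosen with earlier results of these data known. Alternatives chosen after seeing the data were those without C1q and endothelial cells, without required absences and with the marker numbers of PBS, and the interferon motifs were also added then. Cells were male-called with a UMI of Ddx3y, Eif2s3y, Kdm5d or Uty and no Xist, and female-called with Xist and none of these. Thinning drew UMIs without replacement. A comparison with classical monocytes and values of some single genes are not reported here. The ratio and its interval were tested on simulated counts with known folds. Python 3.11.15, numpy 2.4.6, scipy 1.17.1 and pandas 2.3.3 were used. Coordinates come from the GENCODE annotation of GRCm38, the assembly of mm10.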

Additional observations from a re-analysis of the deposited data

How the results depend on the processing

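In every setting run, DT had the smaller share of members. Its ratio of 0.384 moved to 0.208 with at least 3 rule genes, 0.210 with at least 3 and no C1q or endothelial cells, 0.295 without Adgre4 in the rule, 0.271 and 0.261 after thinning to 1000 and 2000 UMIs, and 0.888 among female-called cells. The 506 genes higher in DT members became 305 with at least 3 rule genes, 282 with the C1q and endothelial cells also left out, 331 with 20 CPM added, 191 with at least 100 UMIs per gene, 52 after thinning to 1000 UMIs, 313 among male-called and 258 among female-called cells. The 559 lower genes became 242 with at least 3 rule genes, 210 with the C1q and endothelial cells also left out, 345 without those cells alone, 268 with at least 100 UMIs per gene, 59 after thinning and 200 among female-called cells. Of the 506 higher genes, 379 were measured with at least 3 rule genes and 142 of these were higher again, and of the 559 lower ones 477 were measured and 145 lower again. All of these settings but that with 20 CPM added hold fewer cells, UMIs or genes. Members over other Csf1r-positive cells in DT gave 765 higher genes without C1q and endothelial cells, against 509. Median-of-ratios scaling gave 430 higher and 670 lower. Means of the deposited log2 values moved the median of all genes to -0.19, and female-called cells moved it to 0.15.

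Of the 30 lists with at least 5 measured genes, 56.7% had medians above 0, against 26.7% of the 30 with deposited log2 values, 30% of the 20 still measured after thinning, 39.3% of 28 among male-called and 78.3% of 23 among female-called cells. Of those 20, the medians that changed sign after thinning were those of the rule markers (0.22), adhesion (0.11), interferon gamma targets (-0.028), MHC class II (-0.28), suppressive myeloid genes (-0.047), nuclear oxidative phosphorylation (-0.64), MHC class I (-0.32), chemokine receptors (-0.11), glycolysis (-0.085), vessel and matrix (-0.0057) and survival (-0.0025). The identity median was 0.030 among female-called cells. The alveolar macrophage median was -0.028 with deposited log2 values, -1.08 without endothelial cells and -0.68 without these and C1q cells.

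Of the genes named, those past 1.5-fold that changed sign were as follows. With at least 3 rule genes Dnase1l3 came to -0.34, Osm to -0.40 and Ace to 0.22, and with C1q and endothelial cells also left out Dnase1l3 came to -0.46, Osm to -0.41, Ace to 0.24 and Mt1 to -0.71. Spp1 came to -1.96 without C1q cells, -2.00 without these and endothelial cells and -0.0011 with deposited log2 values, where Vwf came to 0.13. After thinning Ace came to 0.44, Adgre4 to 0.22 and Cxcl10 to -3.25, and with equal weight per cell Ace came to 0.17. Among male-called cells Thbs1 came to -3.03 and Ifitm1 to -1.33. Among female-called cells, of which PBS members held 7, Vcam1 came to -0.54, Gbp7 to -0.51, Clec4e to 4.75, Treml4 to 0.57 and Eno3 to 0.66. The causes were not tested. No paired analysis was possible because each group has 1 library. For the same reason no replicate could be left out. The 106 members in DT, with 592840 UMIs against 1616430 in PBS, limit the depth of every ratio within members.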

Other observations

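Other gene groups in the nonclassical monocytes gave these values. Genes of suppressive myeloid cells had a median log2 ratio, DT over PBS, of 0.68 over 21 measured, with 11 higher and 1 lower. It was 0.24 with at least 3 rule genes and 0.20 in other Csf1r-positive cells. Genes of lipid handling and lysosomes had a median of 0.29 over 25, with 9 higher and 1 lower, and -0.08 without C1q and endothelial cells. Immediate early genes had a median of 0.25 over 27, with 7 higher and 5 lower, and 0.41 without those cells. Among male-called members (16 cells in DT) 2 of 26 immediate early genes were higher and 14 lower, with a median of -0.70. Among female-called members (7 cells in PBS) 8 of 23 were higher and 5 lower, with a median of 0.06. Vessel and matrix genes had a median of 0.02 over 18, with 8 higher and 3 lower, and of -1.05 among male-called and 1.56 among female-called members. Genes of glycolysis and hypoxia had a median of 0.11 over 19, with 2 higher and 2 lower, and of -0.39 among male-called and 0.78 among female-called members.

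Lists of genes known from other cell types differed in their summed levels in members. Whether this RNA came from such cells or was made by the members themselves was not tested. Interstitial and tumour macrophage genes summed to 4846 CPM in DT members and 1707 CPM in PBS members, and to 11727 CPM in DT and 9500 CPM in PBS in other Csf1r-positive cells. Alveolar macrophage genes summed to 3070 CPM in DT members and 2175 CPM in PBS members, against 1878 CPM in DT and 3026 CPM in PBS in other Csf1r-positive cells. Endothelial and stromal genes summed to 48.9 CPM in DT members and 708 CPM in PBS members. T and NK cell genes summed to 120 CPM in DT members and 194 CPM in PBS members, where Cd3e-positive cells had 8741 CPM in DT and 8907 CPM in PBS. B cell genes summed to 52.3 CPM in DT members and 147 CPM in PBS members, and Igkc stood at 8.43 CPM in DT members and 48.3 CPM in PBS members. Neutrophil genes summed to 388 CPM in DT members and 325 CPM in PBS members. Club and alveolar epithelial genes summed to 21.9 CPM in DT members and 63.1 CPM in PBS members.

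Ear2, a ribonuclease of monocytes and alveolar macrophages, stood at 285 CPM in DT members and 414 CPM in PBS members, and at 51.6 CPM in DT and 162 CPM in PBS in other Csf1r-positive cells. Arg1, arginase 1, stood at 30.4 CPM in DT members and 9.28 CPM in PBS members, and at 216 CPM in DT and 43.3 CPM in PBS in other Csf1r-positive cells.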
